A study of Urocitellus parryii with 24 samples.

Results

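The genes described here are A2M and FN1, which encode 2 secreted proteins of the liver, among the 1329 genes that could be paired with a probe on a membrane of 9600 spotted cDNA probes. The A2M and FN1 probes are gene9575 and gene9200 of the array, found as the probes whose mean levels in torpor, arousal and summer equalled the state means listed for these symbols. Both genes were chosen for their differences between states, so these differences are given as a description without a test. Where a gene had several probes, the symbol had been kept for the probe with the strongest difference between states, and other probes of the same genes were not analysed here.

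A2M encodes alpha-2-macroglobulin, a large plasma protein that traps proteases of many kinds and carries them to clearance, and that also binds cytokines and growth factors. FN1 encodes fibronectin, which hepatocytes release into plasma, where it takes part in clotting and wound repair, and which fibroblasts and hepatic stellate cells lay down as matrix. Both are glycoproteins made in large amounts by the liver. In the rat both belong to the acute-phase proteins, whose synthesis follows injury and inflammation.

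Liver RNA came from 24 Arctic ground squirrels (AGS, Urocitellus parryii), 1 array per animal. Of these, 4 were in early torpor, 5 in late torpor, 4 in early arousal, 4 in late arousal, and 7 were labelled summer active. In torpor, which fills most of the winter, metabolism and body temperature are held low, and an arousal is a short return to high body temperature between bouts. Early and late stages are called T for torpor and A for arousal where they are pooled, and the summer active animals, which had finished reproduction, are called P. All animals were wild-caught near Toolik Lake, the labels name no genotype or drug treatment, and the hibernating animals carried implanted temperature transmitters. T and A animals had no food during hibernation and were kept on short days. Torpid animals were killed without anesthesia, and the others under isoflurane. Season, food, day length and the transmitters, stated only for hibernating animals, cannot be told apart from the difference between P and both hibernating states. T also differs from A and P in body temperature and in anesthesia, which cannot be told apart from each other, while A and P animals were both warm and both anesthetized. Nothing in the labels gives the sex or age of the animals.

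A level is log2 of the spot's signal minus its local background, divided by the array's median of such differences, so that a level of 0 is the median spot of the array. Levels are compared only within a probe, since a brighter cDNA spot need not hold a more abundant transcript. Per array, the median spot had an intensity of 54.1 to 132, the median background was 13.3 to 19.9, and replicate arrays of a group had Pearson correlations of 0.891 to 0.965 across probes. The lowest was in late arousal, with 0.891 to 0.958, while every other group stayed at 0.915 or above. The array names tell 2 sets of filters apart, A1 and A2. A1 held all 9 T, 7 A and 2 P animals, and A2 held 5 P animals and late arousal replicate 2. The identifiers of 7 of the 9 T, 7 of the 8 A and 1 of the 7 P animals begin with 04, and what this prefix stands for is not given in the sources used here. Of 13 hepatocyte markers, among them ALB, TTR and APOB, 12 were paired with a probe, and all 12 were over 2 times their background on every array. In whole liver RNA, fewer cells of a type and less RNA per cell cannot be told apart.

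A2M was several times higher in both hibernating states than in P. In early torpor its level was 4.06, 3.98, 3.90 and 4.63, and in late torpor it was 4.10, 4.14, 4.06, 4.95 and 4.28. In early arousal it was 4.34, 4.44, 4.34 and 2.90, and in late arousal it was 4.28, 4.77, 3.09 and 6.15. In P the lowest level was 1.45, the median 2.02 and the highest 2.52. The 17 hibernating animals thus lay above the 7 P animals with no overlap, and the closest pair was the lowest early arousal animal at 2.90 and the highest P animal at 2.52.

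The mean level of A2M was 4.23 ± 0.34 (SD, n = 9) in T, close to the 4.29 ± 1.01 (SD, n = 8) of A, and 2.01 ± 0.38 (SD, n = 7) in P. T exceeded P by 2.22 on the log2 scale (SE 0.30), which is 4.65-fold, and A exceeded P by 2.28 (SE 0.31), which is 4.85-fold. T and A differed by -0.06 (SE 0.29). Among 9599 probes the T against P difference ranked 38 by size and the T against A difference 7890, and the A against P difference ranked 30 of 9600. For scale, T and P did not overlap at 0.776% of the 9407 probes with a value on every array, and A and P at 0.893%. These shares are a background only, since A2M was chosen from the same contrasts.

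**Figure D1:**
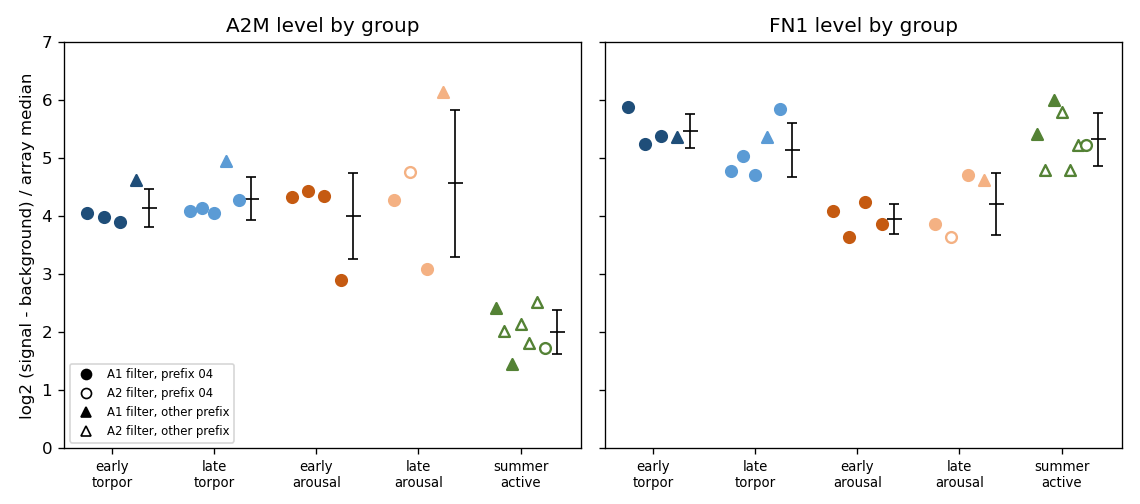
Levels of A2M and FN1 on each array, by group, as log2 of background-subtracted signal over the array median. Filled symbols are A1 filters and open symbols A2 filters, circles are animals with prefix 04 and triangles other animals, and black bars are means ± SD. The 7 summer active animals lie below all 17 hibernating animals for A2M, and the 8 arousal animals lie below the other groups for FN1.

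FN1 was lower in A than in T and P, whose means differed by less than their spread. In early torpor its level was 5.89, 5.24, 5.38 and 5.37, and in late torpor 4.78, 5.04, 4.72, 5.36 and 5.85. In early arousal it was 4.09, 3.64, 4.24 and 3.87, and in late arousal 3.87, 3.64, 4.71 and 4.63. In P the lowest level was 4.80, the median 5.23 and the highest 6.02. The 8 arousal animals were the 8 lowest of all 24, but only narrowly, since the highest arousal level was 4.706, the lowest torpor level 4.717 and the lowest P level 4.796.

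The mean level of FN1 was 5.29 ± 0.41 (SD, n = 9) in T and 5.33 ± 0.46 (SD, n = 7) in P, above the 4.09 ± 0.41 (SD, n = 8) of A. A was below P by a difference of -1.24 (SE 0.22), a 2.37-fold lower level, and T exceeded A by 1.21 (SE 0.20), which is 2.31-fold. T and P differed by -0.04 (SE 0.21). The difference between T and A was number 40 by size of 9599 probes and number 8 of the 1329 paired probes. At 0.191% of the 9407 probes T and A did not overlap, again only as a background, since this contrast also chose FN1. The array median of signal minus background, by which levels were divided, had a middle value of 89.7 in A, beside 64.9 in T and 61.3 in P. The division by the array median therefore bears on this contrast. Without it the mean of FN1 in A still differed from P by -0.64 and T exceeded A by 0.85, beside 0.55 and -0.32 for the median of all probes, but the highest arousal array, at 11.17, lay above the lowest torpor array, at 10.73. After quantile normalization they also overlapped, with arousal reaching 11.01 and torpor beginning at 10.82.

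Ordered by mean level, A2M ran from late arousal (4.57) over late torpor (4.31), early torpor (4.14) and early arousal (4.01) to summer active (2.01). The first 4 of these differed by less than the SD of late arousal, which was 1.27 over 4 animals. FN1 ran from early torpor (5.47) over summer active (5.33) and late torpor (5.15) to late arousal (4.21) and early arousal (3.96). Neighbours among the first 3, and the last 2, differed by less than their SD, and the step between late torpor (SD 0.46, n = 5) and late arousal (SD 0.54, n = 4) was the widest. Over the 24 arrays the levels of A2M and FN1 had a Pearson r of -0.34 and a Spearman coefficient of -0.41. Of their deviations from the 5 group means the Pearson r was 0.02. All points share the division by the median of their array.

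The stages within torpor and within arousal were not used to choose the genes, so these were tested. A2M in early torpor was lower than in late torpor by a difference of -0.16 (95% interval -0.99 to 0.67), with an adjusted p of 0.998 by limma over all probes and an exact two-sided permutation p of 0.5 over 126 splits. For FN1 the difference was 0.32 (95% interval -0.26 to 0.90, limma adjusted p 0.998, exact permutation p 0.270). Between early and late arousal A2M differed by -0.57 (95% interval -1.44 to 0.31, limma adjusted p 0.790, exact permutation p 0.400 over 70 splits), and FN1 by -0.25 (95% interval -0.86 to 0.35, limma adjusted p 0.878, exact permutation p 0.371). Limma called 0 of 9595 probes between the torpor stages and 0 of 9597 between the arousal stages (0% in both), with 458 and 748 probes under 0.05 before adjustment.

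A2M varied far more between the arousal animals than between the torpor animals. Its SD in A was 1.01, larger than that of 98.9% of the 9407 probes and of 98.0% of the 248 probes whose mean in A lay within 0.5 of its own. In T its SD was 0.34, larger than that of 49.5% of the probes, and in P it was 0.38, larger than that of 47.3%. Of the 8, 3 lay apart. Early arousal replicate 4 and late arousal replicate 3 were at 2.90 and 3.09, and late arousal replicate 4 at 6.15, while the other 5 lay between 4.28 and 4.77. On those 3 arrays FN1 was at 3.87, 4.71 and 4.63, so the pair with low A2M did not share a level of FN1. FN1 had like spread in every state, with an SD of 0.41 in T, 0.41 in A and 0.46 in P.

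Within T the 2 animals whose identifiers do not begin with 04, early torpor replicate 4 and late torpor replicate 4, had the highest A2M levels, at 4.63 and 4.95, and the 7 others lay between 3.90 and 4.28. The only such animal in A, late arousal replicate 4, had the highest A2M level of all 24 at 6.15. In P, where 6 of 7 animals are of this kind, the one animal with the prefix 04 was at 1.74, and the 6 others ranged from 1.45 to 2.52. FN1 did not separate in this way, with levels of 5.37 and 5.36 in these T animals against 4.72 to 5.89 in the 7 others. This split was looked at after the values were seen and was not tested. With the prefix as a block in the fit, A2M exceeded P by 2.85 in T and by 3.002 in A.

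The filter sets are uneven over the states and were therefore set beside each contrast with P. Within P, A2M was at 2.42 and 1.45 on the 2 A1 filters and at 1.74 to 2.52 on the 5 A2 filters. FN1 in P was at 5.42 and 6.02 on A1 filters and at 4.80 to 5.80 on A2 filters. With the state in the fit, A2 differed from A1 by 0.27 for A2M (95% interval -0.54 to 1.09, limma adjusted p 0.676) and by -0.53 for FN1 (95% interval -1.06 to -0.00088, limma adjusted p 0.1503, unadjusted p 0.0496), while 20.1% of the 9596 probes were called in this comparison. Among the P arrays alone the exact two-sided permutation p was 0.762 for A2M and 0.143 for FN1, with 0.0476 the smallest p that 5 against 2 arrays allow. After adjustment over these 2 and the 4 stage comparisons by the exact test, the p-values were 0.762 and 0.6.

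With the filter set as a block, A2M exceeded P by 2.42 (SE 0.41) in T and by 2.44 (SE 0.39) in A. On A1 filters alone, with only 2 P animals left, these differences were 2.30 and 2.29. On A2 filters the single arousal animal had an A2M level of 4.77, above all 5 P animals there. For FN1 the block gave -1.55 (SE 0.25) between A and P, 1.14 (SE 0.19) between T and A, and -0.41 (SE 0.27) between T and P. On A1 filters alone the corresponding values were -1.57, 1.14 and -0.42. The arousal animal on an A2 filter had an FN1 level of 3.64, below all 5 P animals there.

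**Figure D2:**
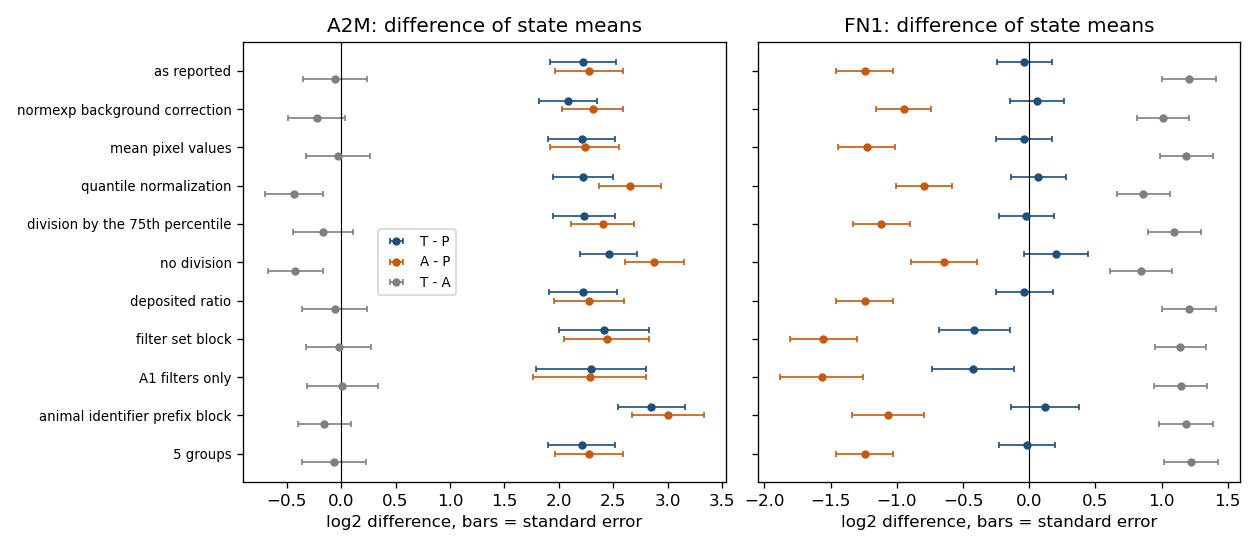
Differences of state means of A2M and FN1 on the log2 scale under the reported processing and 10 alternatives, with standard errors as bars (T torpor, A arousal, P post-reproduction). Both contrasts of A2M with P stay at or above 2.08, and the contrast of FN1 between A and P runs from -1.57 to -0.64.

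The scanner values show what stood behind these levels. The A2M spot had a signal of 1079 to 1922 intensity units in T, 786 to 4961 in A and 199 to 362 in P. Its local background was 21.0 to 48.8 in T, 30.4 to 55.2 in A and 12.5 to 24.7 in P. The spot was thus 10.4 to 20.4 times as bright as its background in P and at least 24.6 times as bright in every hibernating animal, and the signals in P were apart from those of the hibernating animals before any background was subtracted or any division made. The FN1 spot had a signal of 1730 to 5730 in T, 1114 to 2365 in A and 1522 to 4540 in P, over a background of 25.7 to 133. Its raw signals overlapped between A and both other states. No spot of either gene was marked as empty or saturated on any array.

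**Figure D3:**
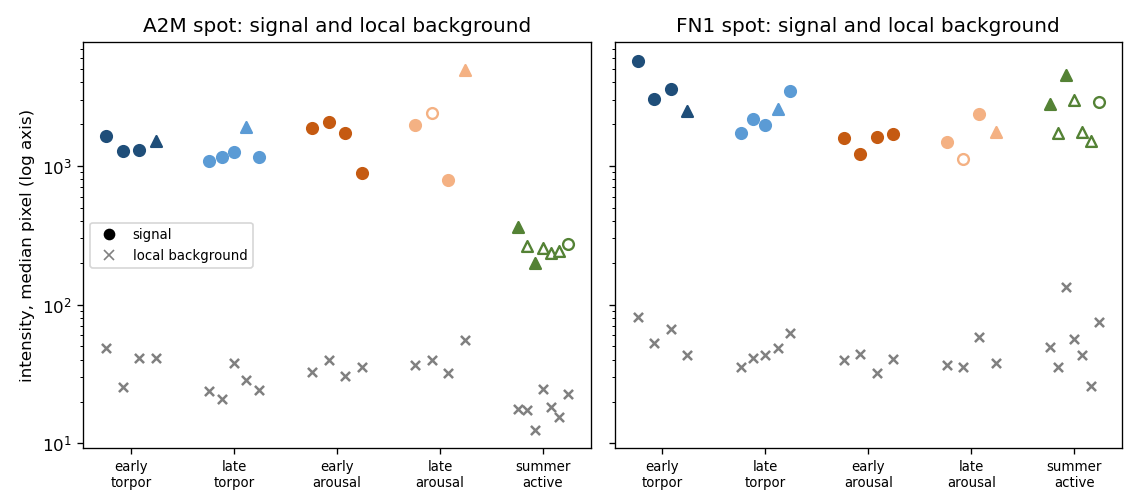
Median pixel intensity of the A2M and FN1 spots and of their local background on each array, on a log axis, with symbols as in the plot of levels. The A2M signal in summer active animals (199 to 362) lies below all hibernating animals, while the FN1 signal in arousal (1114 to 2365) overlaps torpor and summer.

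Ranked by background-subtracted signal among the 9600 spots of its array, A2M stood at a median rank of 499 in T, 345 in A and 1581 in P. Its ranks ran from 354 to 546 in T, from 105 to 832 in A and from 1270 to 2162 in P. FN1 stood at a median rank of 249 in T, 410.5 in A and 268 in P, and ran from 314 to 640 in A and from 121 to 357 in T. By rank, which no division changes, the 7 P animals were still apart from the 17 others for A2M, and for FN1 the arousal and torpor animals overlapped.

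**Figure D4:**
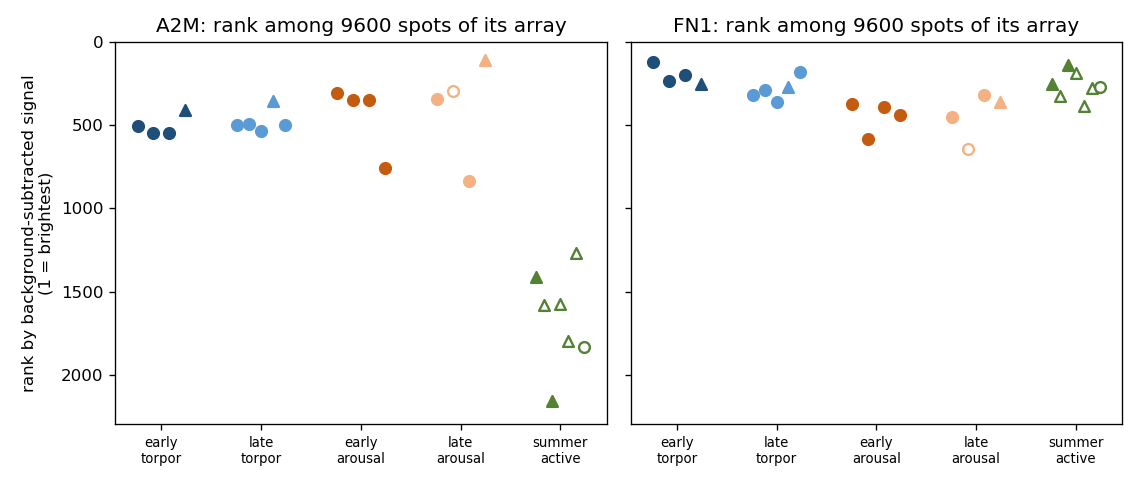
Rank of the A2M and FN1 spots among the 9600 spots of each array, 1 being the brightest, with symbols as in the plot of levels. A2M ranks from 105 to 832 in hibernating animals and from 1270 to 2162 in summer active animals, and FN1 ranks from 314 to 640 in arousal.

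Both spots lie on the last row of the membrane, row 80, A2M in column 115 and FN1 in column 40. The 5 spots that touch A2M differed from P by -0.48 to 0.14 in T and by -0.55 to 0.43 in A. The 5 that touch FN1 differed by -0.17 to 0.40 between T and A and by 0.12 to 0.43 between A and P. In the contrasts in which A2M and FN1 differed, their neighbours moved less, and those of FN1 lay on the other side of 0 between A and P. Between T and P, where FN1 differed by -0.04, its neighbours differed by 0.02 to 0.64. Over the 120 spots of this row the median difference was 0.03 between T and P, -0.06 between A and P and 0.09 between T and A.

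A2M belongs to the plasma protease inhibitors, and 10 other genes of that list were paired with a probe. The list goes by family, and its serpins SERPINA7, a thyroxine carrier, and SERPINF1 are not known to inhibit proteases. All paired symbols come from a list that had itself been chosen on these arrays, so calls among them are common. Between T and P limma called 9.86% of all 9599 probes and 47.3% of the 1329 paired probes at an adjusted p under 0.05. The corresponding shares were 8.47% and 38.5% between A and P and 0.469% and 2.33% between T and A. Of the 10 listed genes, 5 rose in T against P and 0 fell, 50% and 0%, beside 25.6% and 21.7% of the paired probes. ITIH3, a heavy chain of the inter-alpha-trypsin inhibitors that binds hyaluronan, rose by 2.02 (SE 0.27, limma adjusted p 4.06e-05). FETUB, fetuin-B, a cystatin-type inhibitor, rose by 1.15 (SE 0.24, adjusted p 0.00364). AMBP, the precursor of the light chain bikunin, rose by 0.93 (SE 0.24, adjusted p 0.0141). The other two were SERPINA3 and SERPINA7, named after their values were seen.

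In A against P 1 of the 10 listed genes rose and 3 fell, 10% and 30%, beside 12.1% and 26.4% of the paired probes. ITIH3 was the 1 that rose, by 1.12 (SE 0.28, limma adjusted p 0.0141). The 3 that fell were CST3, cystatin C, by 0.69 (adjusted p 0.00595), and SERPINA1 and KNG1, named after their values were seen. The list had a median difference from P of 0.48 in T and -0.09 in A, beside -0.05 and -0.27 over all paired probes and -0.02 and -0.05 over all probes. A2M stood above each of the 10 in both contrasts. With the filter set as a block, ITIH3 and FETUB were still called higher in T, while AMBP (limma adjusted p 0.251), SERPINA3 (0.311) and SERPINA7 (0.269) were not. Between A and P 0 of the 10 were called in either direction under the block, where the share of paired probes called was 9.78%.

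FN1 belongs to the extracellular matrix, of which 10 other listed genes were paired with a probe. In T against P 1 rose and 1 fell, 10% each, beside 25.6% and 21.7% of the paired probes. DCN, the small proteoglycan decorin, rose by 0.70 (SE 0.22, limma adjusted p 0.0407), and COL12A1, a collagen found along collagen fibrils, fell by 1.03 (SE 0.25, adjusted p 0.0103). Neither was called under the filter block, where DCN differed by 0.16 (adjusted p 0.906) and COL12A1 by -0.61 (adjusted p 0.525), and DCN was also lower on A2 than on A1 filters (-0.76, adjusted p 0.0303). The only matrix gene called between T and P under the block was PRG4, named after its values were seen. PRG4 was higher in T by 0.96 with the block (limma adjusted p 0.0348) and by 0.53 without it (adjusted p 0.0673). In A against P VCAN rose, and VTN and LUM fell, with VCAN and LUM named after their values were seen. These were 10% and 20% of the list, beside 12.1% and 26.4% of the paired probes. VTN, the plasma adhesion protein vitronectin, which like FN1 binds integrins and comes from hepatocytes, fell by 1.20 (SE 0.32, adjusted p 0.0222). Its level was 1.45 higher on A2 than on A1 filters (limma adjusted p 0.00154), and with the filter set as a block its adjusted p between A and P was 0.746, 0 of the 10 genes being called there. PCOLCE, an enhancer of procollagen processing, was not called, with a difference of -0.51 between T and A (adjusted p 0.0889). The median difference of the list was -0.04 between A and P and 0.11 between T and A, against -1.24 and 1.21 for FN1.

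Of 6 paired genes listed under coagulation and fibrinolysis, 4 fell in A against P and 0 rose, beside 26.4% of the paired probes that were lower in A. CPB2, which slows fibrinolysis, fell by 1.09 (SE 0.21, limma adjusted p 0.00225), and F5, coagulation factor V, fell by 0.77 (adjusted p 0.0251). The others were VTN, also counted in the matrix list, and LECT2, named after its values were seen. LECT2 is a chemotactic protein and not a clotting or fibrinolysis factor, so the count rests in part on a gene outside this group. FGB, the beta chain of fibrinogen, fell in T against P by 1.28 (SE 0.32, adjusted p 0.0132), and differed by -0.78 in A (adjusted p 0.135). Under the filter set block only F5 of these was called between A and P (adjusted p 0.0467), CPB2 had an adjusted p of 0.0507, LECT2 differed by -0.23 (adjusted p 0.846), and FGB was not called in T (adjusted p 0.413). The F5 probe was dim, being over 2 times its background on only 8 of the 24 arrays. CPB2, VTN, LECT2 and FGB were over that limit on all 24.

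Of 10 paired carriers and apolipoproteins, 2 rose in T against P and 0 fell, beside 25.6% and 21.7% of all paired probes. In A against P 4 fell and 0 rose, beside 26.4% and 12.1%. TTR, transthyretin, fell by 1.32 (SE 0.24, adjusted p 0.00165), APOA2, an apolipoprotein of high-density lipoprotein, fell by 1.11 (adjusted p 0.00261), AFM, the vitamin E carrier afamin, fell by 1.22 (adjusted p 0.0148), and PON1, named after its values were seen, was the fourth. APOB, the structural protein of very-low-density lipoprotein, rose in T by 0.71 against P (adjusted p 0.00750) and by 0.86 against A (SE 0.16, adjusted p 0.0110), while its difference between A and P was -0.15 (adjusted p 0.620). Under the filter set block TTR (adjusted p 0.00703) and APOA2 (0.0383) were still called between A and P, and APOB between T and A (0.00809). AFM (0.287) and PON1 (0.114) were not called there, and APOB exceeded P in T by 0.39 (0.516). The other gene that rose in T against P was AZGP1, named after its values were seen. Under the block AZGP1 differed there by 0.17 (limma adjusted p 0.930).

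Of 4 paired genes of complement and innate immunity, 0 rose and 1 fell in T against P, beside 25.6% and 21.7% of the paired probes. The 1 was MBL2, mannose-binding lectin, which fell by 0.97 (SE 0.31, limma adjusted p 0.0428). C3, the central complement component, had a difference of 0.97 between T and A (adjusted p 0.0510), CFI, complement factor I, one of 0.81 (adjusted p 0.0833), and CCL16, a chemokine made by hepatocytes, one of -0.68 between A and P (adjusted p 0.0507). None of these 3 was called in any contrast of states. With the filter set as a block, MBL2 differed by -0.54 between T and P and was no longer called (adjusted p 0.729), C3 was called between T and A (adjusted p 0.0423) and CFI between A and P (adjusted p 0.0239).

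Over the 5 lists of secreted proteins 39 genes other than A2M and FN1 were paired out of 134 listed. Between T and P 8 rose and 3 fell, 20.5% and 7.69%, beside 25.6% and 21.7% of the 1329 paired probes. Between A and P 2 rose and 12 fell, 5.13% and 30.8%, beside 12.1% and 26.4% of the paired probes. Between T and A 1 was higher in T and 0 were lower, beside 1.73% and 0.602%. The medians of the 39 were -0.14, -0.68 and 0.50, against -0.05, -0.27 and 0.19 over the paired probes. Under the filter set block the counts were 3 higher and 0 lower, 0 and 4, and 4 and 0, in contrasts where 3.46%, 9.78% and 6.09% of the paired probes were called. Without division by the array median, which moved the median of all probes to 0.55 between A and P, 12 rose and 1 fell there, so that the direction of this list in A is that relative to the array median.

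**Figure D5:**
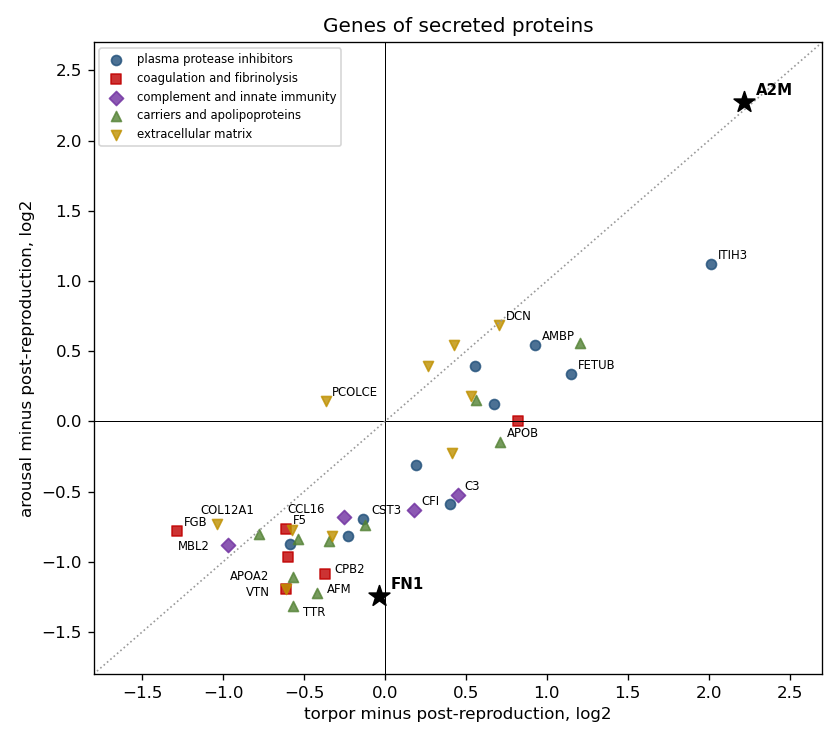
Difference from P in A against that in T, on the log2 scale, for A2M and FN1 (stars) and the 39 other paired genes of 5 lists of secreted proteins, with labels for genes named by rule. Both axes share the P arrays, and the dotted line marks equal differences. A2M lies near the line at 2.22 and 2.28, and FN1 lies below it at -0.04 and -1.24.

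Of 18 receptors and binding partners of A2M and FN1, such as LRP1 and the integrins, 0 were paired with a probe. Of 20 genes of acute-phase signalling 4 were paired. In T against P 1 of them fell, beside 21.7% of the paired probes, and in A against P 1 rose, beside 12.1%. PIAS1, an inhibitor of STAT signalling, fell in T against P by 0.67 (SE 0.21, limma adjusted p 0.0383), and NFKBIA, which holds NF-kappa-B in the cytoplasm, rose in A against P by 0.65 (SE 0.17, adjusted p 0.0167). IL6ST, the shared signalling receptor of the interleukin-6 family, differed by 0.42 between T and P (adjusted p 0.159), and IL1RN, the interleukin-1 receptor antagonist, by 0.43 (adjusted p 0.0526). With the filter set as a block 0 of the 4 were called.

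Of 29 genes of the endoplasmic reticulum and secretion, through which both proteins pass, 16 were paired. In T against P 5 rose and 2 fell, 31.25% and 12.5%, beside 25.6% and 21.7% of all paired probes. In A against P 2 rose and 4 fell, 12.5% and 25%, near the 12.1% and 26.4% of all paired probes. TRAM1, which helps nascent chains enter the endoplasmic reticulum, rose by 1.08 in T (SE 0.28, limma adjusted p 0.0168) and by 1.06 in A (adjusted p 0.0239). COPE, a subunit of the coat of Golgi vesicles, rose by 1.11 in T (adjusted p 0.00886). DNAJB9 and DERL2, which act in the disposal of misfolded proteins, fell in T by 1.33 (adjusted p 0.00773) and by 1.21 (adjusted p 0.00368). TRAM1, COPE and DERL2 differed between filter sets, by -1.26, -1.51 and 1.13, and with the filter set as a block 0 of the 16 were called against P, where 3.46% and 9.78% of the paired probes were.

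Among 1311 other paired probes, the levels most like those of A2M over the 24 arrays belonged to GNAI2, an inhibitory G protein subunit (Pearson r 0.80, Spearman coefficient 0.74), ADSL, an enzyme of purine synthesis (0.80 and 0.77), LSM14B, an RNA-binding protein (0.79 and 0.74), ITIH3 (0.78 and 0.65) and SLC16A12, a transporter of the monocarboxylate family (0.76 and 0.68). ITIH3 was the only one of these 5 on a list of secreted proteins. The least alike were DHRS7, a short-chain dehydrogenase (r -0.78), VPS54, of a Golgi tethering complex (r -0.77), and CRYL1, a dehydrogenase of the glucuronate pathway (r -0.76). Of the deviations from the 5 group means, r was 0.48 for GNAI2, 0.65 for ADSL, 0.56 for ITIH3 and -0.74 for DHRS7, but 0.23 for SLC16A12 and -0.02 for CRYL1. All points share the division of their array, and the filter sets are uneven over the states, so the values are a description. On the 18 arrays with A1 filters r was 0.69 for GNAI2, 0.63 for ADSL, 0.63 for LSM14B, 0.70 for ITIH3 and 0.54 for SLC16A12. For DHRS7, VPS54 and CRYL1 it was -0.74, -0.63 and -0.55.

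Of the 5 paired probes with levels most like those of FN1, 4 are given here. These were GSTA3, a glutathione transferase (Pearson r 0.79, Spearman coefficient 0.82), UGT1A8, a glucuronosyltransferase (0.77 and 0.81), GSTK1, the mitochondrial and peroxisomal glutathione transferase (0.76 and 0.80), and FAH, the last enzyme of tyrosine breakdown (0.75 and 0.71). GSTA3 had a mean level of 5.33 in T, 4.28 in A and 5.88 in P, and GSTK1 of 3.16, 2.56 and 3.57. The least alike were DIAPH3, a formin (r -0.69), MTUS1, a microtubule-associated protein (r -0.65), and TP53INP1, a stress-induced p53 target (r -0.65), whose mean level was 3.01 in T, 4.62 in A and 2.76 in P. Of the deviations from group means, r was 0.43 for GSTA3, 0.60 for UGT1A8 and -0.07 for TP53INP1.

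Markers of other cells of the liver were set beside both genes. The summed level of the 12 paired hepatocyte markers, as ratios to the array median, was 546 to 1387 in T, 477 to 771 in A and 678 to 1024 in P. A sum gives the brightest probes the most weight, and the 12 differences between A and P had both signs. Between A and P 5 of them fell and 0 rose, beside 26.4% and 12.1% of all paired probes. Among those that fell were TTR by 1.32 and APOA2 by 1.11, while ALB differed by 0.15 (limma adjusted p 0.679) and FABP1 by 1.10 (adjusted p 0.0736). Between T and P 5 of the 12 rose and 2 fell, beside 25.6% and 21.7%. The 8 of 13 paired markers of stellate cells and fibroblasts, which also make fibronectin, summed to 5.51 to 7.91 in T, 6.19 to 7.66 in A and 6.56 to 8.64 in P. The 3 of 6 paired markers of B or plasma cells summed to 2.28 to 6.77 in T, 2.43 to 6.16 in A and 3.52 to 40.5 in P. Of these 3, IGJ, the joining chain of secreted immunoglobulins, differed from P by -1.78 in T (limma adjusted p 0.00135) and by -1.71 in A (0.00259), and IGLL3, of the immunoglobulin light chains, by -1.93 (0.00392) and -1.82 (0.00783). Both were still called between A and P under the filter block (0.0317 and 0.0314), though not between T and P (0.0621 and 0.0522). These calls, lower in both hibernating states, were in the contrasts in which A2M was higher. IGJ and IGLL3 were named after their values were seen, and the remaining paired marker, CD27, was called in neither contrast. The 4 of 9 macrophage markers summed to 10.4 to 33.6 in T, 6.77 to 12.9 in A and 6.16 to 24.2 in P, and the 4 of 9 endothelial markers to 6.56 to 12.5, 4.81 to 8.77 and 5.17 to 9.44. Of these 5 lists 0 paired markers were at or below 0 on any array. Not all were bright, though. Over 2 times background on every array were 6 of 8 stellate cell, 2 of 3 B or plasma cell, 4 of 4 macrophage and 2 of 4 endothelial markers. Between T and P 2 macrophage and 2 endothelial markers rose and 0 fell, and of the stellate cell list 1 rose and 2 fell. Between A and P 0 macrophage markers rose and 1 fell, 1 endothelial marker rose and 0 fell, and 1 stellate cell marker went each way. With the filter set as a block 0 macrophage, endothelial or stellate cell markers were called against P. The other 4 marker lists, for erythroid cells (2 of 5 paired), cholangiocytes (1 of 5), adipocytes (1 of 4) and striated muscle (9 of 9), summed to at most 8.31 on any array. The part of these cells in the levels of A2M and FN1 was not tested.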

How the data were processed

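Liver RNA of 24 AGS was amplified, labelled with 33P and hybridized to nylon membranes, 1 array per animal, in a single batch of RNA. The authors scanned the membranes, and the deposited scanner files hold spot and background intensity from ImaGene 6.1.0. They also deposited a linear ratio per spot, the background-subtracted signal over the array median, with empty spots and spots at or below 0 at a floor of 0.002. Levels here are log2 values of that ratio recomputed from the deposited intensity, with 668 of 230400 spots at or below 0 as missing. The recomputed ratio equalled the deposited ratio at 228102 spots within 1e-5 of its value. No depth exists for arrays, and the number of arrays limits the precision.

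Groups came from the labels. Replicates are separate animals, numbered in the order of deposition. Symbols were paired with probes by state means within 0.0001, which gave 1329 pairs with a distance of at most 5e-06, the next probe being at least 0.00532 away. A2M and FN1, the gene lists and the tests were chosen with earlier results of these data known. A cDNA spot can also bind transcripts of related genes, which was not tested. A RefSeq gene table of the species (mUroPar1.hap1) matched 1 of the 2 symbols, FN1, and no sequences were used here.

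Differences were fitted with limma 3.58.1 in R 4.3.3 (lmFit and eBayes) over 3 states, over 5 groups for the stages, and over state plus filter set. Benjamini-Hochberg adjustment ran across all probes, and calls were made at 0.05. The scripts were tested on simulated data. Exact two-sided permutations used the difference of means (scipy 1.17.1, numpy 2.4.6). Named genes are A2M and FN1, up to 4 genes of each list with the smallest p of the F-test over states, and the 5 most and 3 least correlated paired probes of each gene, 1 of which is not reported here. The alternatives tried were normexp (offset 50), mean pixel values, quantile normalization, the 75th percentile or no division in place of the median, the floor, the deposited ratio, empty spots as missing, leaving out probes not over 2 times background on 7 arrays, the filter set or identifier prefix as a block, A1 filters alone, 5 groups, leaving out each array, and the methods' ANOVA with Storey's q and Tukey's test.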

Additional observations from a re-analysis of the deposited data

Results flagged for a closer look

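Among the 14 sets of 4 to 9 animals in which A2M and FN1 were looked at for a single animal apart from the rest, 2 held one, both for A2M. Chance gives such an animal in about 1 of 20 sets. Early arousal replicate 4 had an A2M level of 2.90, while the next lowest of the 4 early arousal animals was at 4.34. Late torpor replicate 4 had an A2M level of 4.95, while the next highest of the 5 late torpor animals was at 4.28. The first is an animal with the identifier prefix 04 and the second is not. Why they stood apart was not tested.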

How the results depend on the processing

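The difference of A2M between T and P ranged from 2.08 to 2.85 over 13 alternatives, and that of FN1 between T and A from 0.85 to 1.23. A2M between A and P moved by more than 1 SD only with the identifier prefix as a block (3.002), and FN1 between A and P with quantile normalization (-0.79) and without division (-0.64). With one array left out, A2M ran from 2.12 to 2.30 (T and P), 2.01 to 2.48 (A and P) and -0.26 to 0.21 (T and A), and FN1 from -0.12 to 0.08, -1.33 to -1.13 and 1.13 to 1.30. No stage or filter set difference of either gene reached an adjusted p under 0.05 in any alternative (lowest 0.0763), and A2M between the torpor stages changed sign without division (0.13). No filter block applies to the filter comparison, and no fit over 3 states to the stages. No paired analysis was possible because each array came from a different animal, and replicate numbers only follow the order of deposition.

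The counts of the 39 secreted protein genes were less stable, and the cause was not tested. Genes higher and lower in T than in P, which were 8 and 3, numbered 3 and 0 with the filter block, 1 and 0 on A1 filters alone, 5 and 0 with the prefix as a block, 6 and 5 with mean pixel values, and 11 and 7 by the methods' test. Those higher and lower in A than in P, 2 and 12, numbered 0 and 4 with the filter block, 0 and 2 on A1 filters, 1 and 4 with the prefix block, 1 and 16 with mean pixel values, 4 and 8 with the 75th percentile, 12 and 1 without division, 2 and 3 with quantile normalization, and 4 and 19 by the methods' test. Between T and A, 1 and 0 became 2 with normexp, empty spots missing or dim probes left out, 3 with 5 groups, 4 with the filter block or A1 filters, 5 with mean pixel values, 0 with quantile normalization, 0 and 1 without division, 1 and 1 with the 75th percentile, and 15 and 1 by the methods' test. Leaving out one array gave 4 to 10 and 2 to 5 between T and P, 1 to 3 and 6 to 19 between A and P, and 1 to 3 and 0 between T and A. The 4 came without summer active replicate 5, and 5 in place of 8 without early torpor replicate 4, late torpor replicates 4 or 5, or summer active replicates 2 or 4. The 5 lower genes came without summer active replicate 1, the 6 and 7 lower in A without summer active replicates 4 and 5, and the 19 without late arousal replicate 2, the arousal animal on an A2 filter.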
